A study of Homo sapiens with 8 samples.

Results

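The genes described here build and load the transport vesicles that shuttle between the endoplasmic reticulum (ER) and the Golgi: the COPI and COPII coats with their GTPases, the p24 (TMED) cargo receptors, and 7 other cargo receptors and Golgi proteins. A list of 42 gene symbols was matched to the symbols in the tables of mean level, and 41 had a row for KYSE30 and 40 for KYSE510, out of 26008 and 25561 genes. The symbol SEC12 matched no row in either table. RefSeq gives it as another name of PREB, which is on the list itself. COPZ2, a paralog of the COPI subunit zeta, had a mean of 0.264 in KYSE30 and no row in KYSE510, so 40 genes had values in both lines, all with a mean of at least 10.

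KYSE30 and KYSE510 are human esophageal squamous cell carcinoma (ESCC) lines. RNA-seq was performed on cells carrying a hairpin against the LIM-homeodomain gene LHX2 (shLHX2) and on cells carrying a control hairpin (shNC), with 2 libraries of each group in each line and 8 in all. According to the methods, hairpins were delivered by lentivirus and infected cells were selected with a drug, so both groups carried a vector. Which hairpin gave which library, and whether the libraries of a group came from separate cultures, was not given in the labels or methods. The list was chosen by the comparison of shLHX2 with shNC in these tables, including the fold change of TMED10, and that comparison is not analysed here. What is described instead is a measure that the choice did not use: the authors' mean normalized count of each gene over the 4 libraries of a line, shLHX2 and shNC together. A mean of this kind has no spread between libraries, so values are given without an SD and no difference was tested. Nor can the part of the knockdown in a level be told apart from the part of the line.

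COPII is the coat that buds from the ER and carries newly made proteins forward. The GTPase SAR1 recruits it, SEC23 and SEC24 form its inner layer, with SEC24 binding cargo, and SEC13 and SEC31 form its outer cage. COPI is the coat of Golgi membranes that returns escaped ER residents and recycles receptors. It is recruited by ARF GTPases as a complex of subunits that are taken up together. The p24 proteins are small membrane proteins that cycle between both compartments in mixed complexes, bind both coats and help to load cargo such as GPI-anchored proteins. Because ER stress programs control many of these genes in other systems, their promoters are shown first.

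Promoter sequences from RefSeq (GRCh38.p14, 250 bases before to 50 after the start site) were found for 36 of the 42 symbols, with the first listed start used where a gene had several. Of 9 motifs searched on both strands, TGACGTGG, an 8-base core bound in the literature by ATF and CREB family factors, was present in 9 of 36 promoters (25%). The same letters were in 0.795% of 27305 promoters and in 0.939% of 9481 coding genes measured in both lines. The 10 windows that carry this motif are shown because, of the 9 motifs, this one had the highest ratio between its share of these promoters and its share of all promoters. The motif is in capitals, as TGACGTGG or as its reverse complement CCACGTCA, and each 30-base window is read 5′ to 3′ on the strand of its gene.
ARF1, chr1:228082681-228082710, plus strand: cccggaggcgcTGACGTGGccgccgtcaga
COPA, chr1:160343227-160343256, minus strand: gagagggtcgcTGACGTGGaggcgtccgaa
COPB1, chr11:14499841-14499870, minus strand: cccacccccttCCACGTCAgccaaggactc
COPB2, chr3:139389825-139389854, minus strand: gctcagcggcaCCACGTCAcggcccttagt
COPB2, chr3:139389632-139389661, minus strand: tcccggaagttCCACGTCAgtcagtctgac
GBF1, chr10:102245526-102245555, plus strand: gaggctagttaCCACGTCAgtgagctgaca
KDELR3, chr22:38468039-38468068, plus strand: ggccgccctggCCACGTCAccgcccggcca
SEC16A, chr9:136484707-136484736, minus strand: tggccctggtgCCACGTCAgccggactgaa
SEC23A, chr14:39103221-39103250, minus strand: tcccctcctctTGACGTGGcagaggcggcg
SEC24A, chr5:134648595-134648624, plus strand: gtgagagtcggTGACGTGGcggcgaggccg

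The COPI genes ARF1, COPA, COPB1, COPB2 and GBF1 carry it, as do the COPII genes SEC16A, SEC23A and SEC24A and the KDEL receptor gene KDELR3, and none of the p24 genes searched does. Counting the start site as 0, the motif covers positions 5 to 12 in both COPA and GBF1 and -16 to -9 in ARF1. COPB2 is the gene with a pair of copies, at -163 to -156 and at 30 to 37. SEC23A has it across the start site itself, from -4 to 3.

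Other motifs separated these promoters less or not at all. TGACGT, which is contained in TGACGTGG and in TGACGTCA, was in 15 of 36 (41.7%), against 8.32% of all promoters and 11.9% of coding genes. CCGGAAG, the core of ETS-type sites, was in 17 of 36 (47.2%), against 10.7% and 20.1%. The NRF1 palindrome was in PREB and SEC24C (5.56%, against 1.36% and 2.36%). CCAAT was in 13 of 36 (36.1%), against 35.7% of all promoters and 36.9% of coding genes, a share near the background. TGACGTCA and TATAAA were in none of the 36, against 1.98% and 12.0% of all promoters and 3.29% and 5.17% of coding genes. The ER stress response elements II and I, spaced elements longer than the motifs above, were also in none, against 0.0549% and 0.0806% of all promoters. Their shares of coding genes were 0.116% and 0.148%. Elements this rare would mostly be missing from any 36 promoters, so their absence does not set these genes apart. No match says only that these letters are not in these windows, and a match is not a measured binding site.

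To compare genes with each other, each mean was divided by the length of the gene's exons (GENCODE 29, union of exons) and scaled to a sum of 1000000 over all genes of the table. This value is called the level. Orders of genes by level are for the union of exons unless another length is named, and were compared with those under the longest transcript and the coding transcript. The median level of the 40 genes was 85.2 in KYSE30 and 72.5 in KYSE510. Over all genes with a mean of at least 10 in both lines, the median level was 19.1 and 19.3. Among the highest 10% of genes by level stood 17 of them in KYSE30 and 14 in KYSE510. Together the genes took 0.559% and 0.499% of the summed means.

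**Figure D1:**
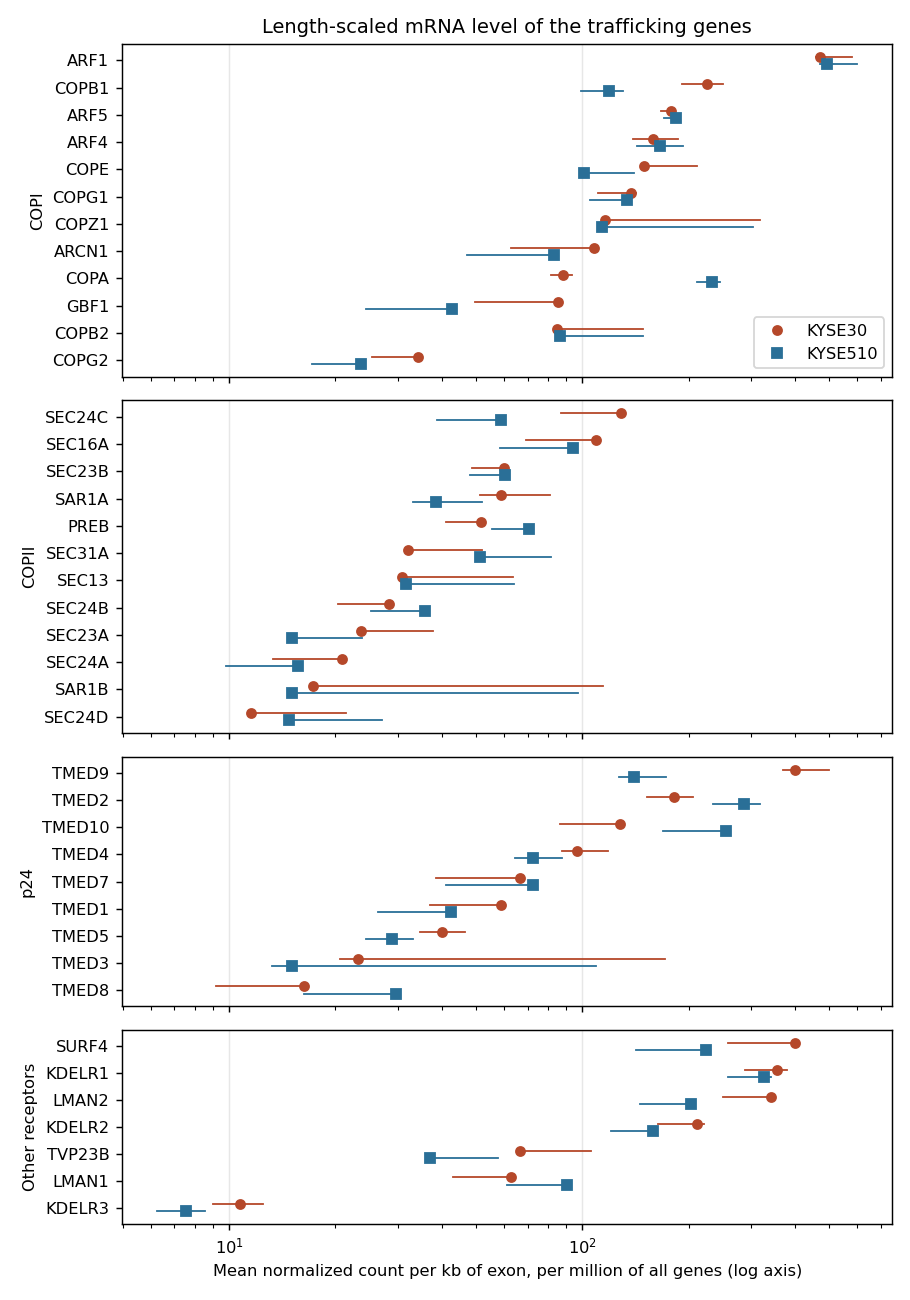
Level of each gene (mean normalized count per kb of exon, scaled to a sum of 1000000 over all genes, log axis) in KYSE30 (circles) and KYSE510 (squares), by family and sorted by KYSE30. Thin lines span the level under the 3 definitions of gene length tried, not an error between libraries; ARF1 is the highest COPI gene in both lines, whereas TMED9 at 399.3 and 139.9 and COPA at 87.9 and 232.7 lie far apart.

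ARF1, the GTPase that brings COPI to Golgi membranes, had the highest level of the family in both lines under each of the 3 lengths, with 471 in KYSE30 and 494 in KYSE510. ARF5 had 179 and 184 and ARF4 158 and 166, an order that turned with the longest transcript (ARF5 167.1 and 169.9, ARF4 186.7 and 193.3). ARF1 made up 58.3% and 58.5% of the summed level of these 3 GTPases, so their proportions were nearly the same in both lines. ARF3, which is on another list and had levels of 231.5 and 209.8, is not in this sum. GBF1, the exchange factor that loads ARF at the early Golgi, had a level of 85.3 in KYSE30 against 42.8 in KYSE510.

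The subunits of the COPI coat are taken up as a single complex, but their mRNAs were not at 1 level. With the gamma paralogs summed (171.9 in KYSE30, 157.1 in KYSE510) and COPZ1 alone for zeta, the highest subunit in KYSE30 was COPB1 (beta), with 225.5, and the lowest was COPB2 (beta prime), with 85.0, a 2.65-fold span. In KYSE510 the highest was COPA (alpha), with 232.7, and the lowest ARCN1 (delta), with 83.2, a 2.80-fold span. These ends rest on the gene length. With the coding transcript, COPZ1 was highest in both lines (317.5 and 304.8) and ARCN1 lowest (62.7 and 47.2), spans of 5.06-fold and 6.46-fold. With the longest transcript, COPB1 (250.7) was highest in KYSE30 and COPA (244.6) in KYSE510, and ARCN1 was lowest in both (84.4 and 64.0). The order of COPA and COPB1 was the same under the 3 lengths: COPA stood at 0.390 of the COPB1 level in KYSE30 and at 1.96 times that level in KYSE510, with ranges of 0.374 to 0.426 and 1.88 to 2.13.

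COPE (epsilon) had levels of 149.3 in KYSE30 and 101.0 in KYSE510, COPZ1 (zeta) 115.8 and 113.5, and ARCN1 108.2 in KYSE30. COPB2 had 86.2 in KYSE510, next to its 85.0 in KYSE30. Of the gamma paralogs, COPG1 had 137.6 and 133.4 and COPG2 34.3 and 23.7, so that COPG1 made up 80.1% of gamma-COP mRNA in KYSE30 and 84.9% in KYSE510. Zeta was represented by COPZ1 alone, since COPZ2 was at a mean of 0.264 or had no row.

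The COPII genes were lower as a family, with a median level of 31.5 in KYSE30 and 37.1 in KYSE510, against 126.7 and 116.2 for COPI. With the union of exons, SEC24C, a cargo-binding subunit, was highest in KYSE30 with 128.7, followed by the exit-site scaffold SEC16A with 109.3 and SEC23B with 59.9. In KYSE510 SEC16A was highest with 94.0, followed by PREB with 70.8 and SEC23B with 60.3. PREB is the ER membrane protein that loads SAR1 with GTP, and it had 51.6 in KYSE30. The lowest were SEC24D (11.6 in KYSE30, 14.8 in KYSE510), SAR1B (17.3 and 15.0) and SEC24A (20.8 and 15.7), with SEC23A at 15.0 in KYSE510. This order also rests on the length. With the coding transcript, SAR1B was the highest COPII gene in both lines (114.1 and 97.4) and SEC24A the lowest (13.3 and 9.83), and with the longest transcript SEC24C was highest in KYSE30 (111.0) and SEC31A in KYSE510 (81.7).

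The 4 SEC24 paralogs bind different sets of cargo signals, and their proportions differed between the lines. SEC24C made up 68.0% of SEC24 mRNA in KYSE30 and 47.0% in KYSE510. SEC24B made up 14.9% and 28.6%, SEC24D 6.10% and 11.8%, and SEC24A 11% and 12.6%. SEC24C led under each of the 3 gene lengths, with shares between 63.7% and 68.0% in KYSE30 and between 41.4% and 47.0% in KYSE510.

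SEC23B, whose loss causes a congenital anemia in humans, supplied 71.7% of SEC23 mRNA in KYSE30 and 80.0% in KYSE510, and SEC23A 28.3% and 20%. The outer cage genes SEC13 (30.9 in KYSE30, 31.6 in KYSE510) and SEC31A (32.2 and 51.2) had no order that held under the 3 lengths in either line. With the coding transcript, SEC13 was above SEC31A in both lines (63.6 against 39.6 in KYSE30, 63.9 against 61.7 in KYSE510). Between the GTPases SAR1A and SAR1B no order can be given. SAR1A was at 58.8 and 38.5 and made up 77.3% of SAR1 mRNA in KYSE30 and 71.9% in KYSE510 with the union of exons, but 41.5% and 34.8% when the coding transcript set the length, because SAR1B has 10963 bases of union exon and 929 in its coding transcript.

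TMED9, an alpha-subfamily p24, was the highest p24 gene in KYSE30 under each of the 3 lengths, with a level of 399.3, against 139.9 in KYSE510. TMED2, the sole p24 of the beta subfamily, was highest in KYSE510, also under each length, with 181.9 in KYSE30 and 286.0 in KYSE510. In KYSE30 it ranked next after TMED9, except with the coding transcript, where TMED3 (171.5) was above it (152.4). TMED10, the sole member of the delta subfamily, had 128.2 in KYSE30 and 255.1 in KYSE510. The ratio of TMED10 to TMED9 was 0.321 in KYSE30 and 1.82 in KYSE510, so the order of these p24 genes was opposite in the lines, as it was under the other lengths (0.234 and 1.33).

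Of the summed level of the 8 listed p24 genes in the 4 subfamilies (TMED8 left out), TMED9 took 40.2% in KYSE30 and 15.3% in KYSE510. TMED2 took 18.3% and 31.3%, and TMED10 12.9% and 28.0%. TMED2 and TMED10, which bind each other and stabilise the p24 complex, kept a closer proportion to each other: TMED2 was 58.7% of their sum in KYSE30 and 52.9% in KYSE510. TMED4, the other alpha member, had 96.5 and 72.4, which left TMED9 with 80.5% and 65.9% of alpha-subfamily mRNA.

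Of the listed gamma-subfamily genes, TMED7 had levels of 66.5 in KYSE30 and 72.5 in KYSE510, TMED1 58.7 and 42.6, TMED5 40.04 and 28.9, and TMED3 23.2 and 15.1. Their order rests on gene length: TMED3 ran between 20.6 and 171.5 in KYSE30 and between 13.2 and 109.2 in KYSE510 over the 3 lengths. Its share of the summed level of these listed genes ran between 12.2% and 60.9% in KYSE30 and between 9.48% and 54.3% in KYSE510. TMED8, whose role in transport is less well described, was the lowest p24 gene in KYSE30 with 16.3 and had 29.6 in KYSE510.

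Among the other receptors, SURF4, which carries soluble cargo out of the ER, had levels of 399.4 in KYSE30 and 224.2 in KYSE510. KDELR1, a receptor that returns ER chaperones, had 356.5 and 326.2, and LMAN2, a lectin of the early pathway, 341.3 and 202.4. KDELR2 had 211.4 and 158.5 and KDELR3 10.7 and 7.52, so the KDEL receptor pool was 61.6% KDELR1, 36.5% KDELR2 and 1.85% KDELR3 in KYSE30 and 66.3%, 32.2% and 1.53% in KYSE510. LMAN1, the lectin that carries clotting factors from the ER, had 62.7 and 90.7, and the Golgi membrane protein gene TVP23B 66.6 and 37.0.

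**Figure D2:**
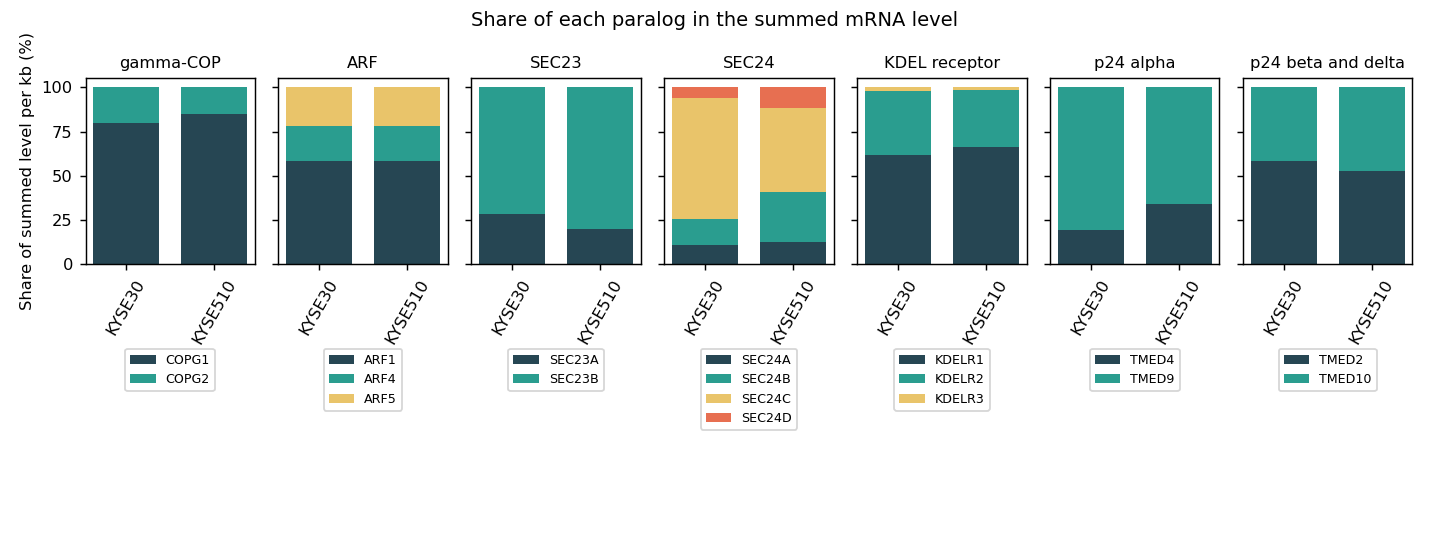
Share (%) of each paralog in the summed level per kb of its set, in KYSE30 (left bar) and KYSE510 (right bar) of each panel. The shares among ARF1, ARF4 and ARF5 are nearly equal in both lines (ARF1 58.3% and 58.5%), whereas SEC24C takes 68.0% of SEC24 in KYSE30 and 47.0% in KYSE510.

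Levels were then set across the lines. The tables were normalized separately, so the log2 ratio of means (KYSE30 over KYSE510) was centred on the median ratio of the 13706 genes with a mean of at least 10 in both, which was 0.04 before centring. A gene was counted as apart at 1.5-fold. By this count 10 of 40 genes were higher in KYSE30, against a background of 24.9% of all genes, and 5 of 40 were higher in KYSE510, against 24.6%. Because these genes are abundant, the 5994 genes with a mean of at least 500 were taken as a further background, although not all of the 40 reach that mean, and of these 16.3% were higher in KYSE30 and 20.8% in KYSE510. The share higher in KYSE30 thus lay near the first background and above the second, and the share higher in KYSE510 lay below both.

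TMED9 was the gene furthest apart, with a mean of 5160 in KYSE30 and 1765 in KYSE510 (log2 ratio 1.51). SEC24C had 3641 and 1620 (1.13), GBF1 3000 and 1469 (0.99) and COPB1 6129 and 3156 (0.92). TVP23B (0.84), SURF4 (0.83), LMAN2 (0.75), SEC23A (0.65), TMED3 (0.62) and SAR1A (0.61) were also higher in KYSE30. These 10 genes came from all 4 families, with 2 from COPI, 3 from COPII, 2 from p24 and 3 from the other receptors.

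COPA was the gene furthest apart in the other direction, with a mean of 3597 in KYSE30 and 9291 in KYSE510 (log2 ratio -1.41). TMED10 had 3376 and 6560 (-0.998), TMED8 674 and 1191 (-0.86), SEC31A 1559 and 2419 (-0.67) and TMED2 3690 and 5665 (-0.66). The p24 family thus held 2 of the genes higher in KYSE30 and 3 of those higher in KYSE510. Next to the 1.5-fold limit, COPE (0.56), LMAN1 (-0.54) and COPG2 (0.53) were just outside and SAR1A and TMED3 just inside.

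The remaining genes differed by less than 1.5-fold. SEC23B (-0.01), COPZ1 (0.02), COPB2 (-0.02), COPG1 (0.04), SEC13 (-0.04), ARF5 (-0.05), ARF1 (-0.07) and ARF4 (-0.08) lay closest to the median gene. KDELR1 (0.12), TMED7 (-0.13), SAR1B (0.19) and SEC16A (0.21) came next. SEC24B (-0.34), SEC24D (-0.36), ARCN1 (0.37), SEC24A (0.41), TMED4 (0.41), KDELR2 (0.41), TMED1 (0.46), PREB (-0.46), TMED5 (0.47) and KDELR3 (0.50) were further from it. The median log2 ratio was 0.03 for COPI, 0.09 for COPII, 0.41 for p24 and 0.50 for the other receptors, and 0.20 over the 40 genes, beside 0 over all genes by construction. The middle 50% of single genes ran from -0.57 to 0.58.

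**Figure D3:**
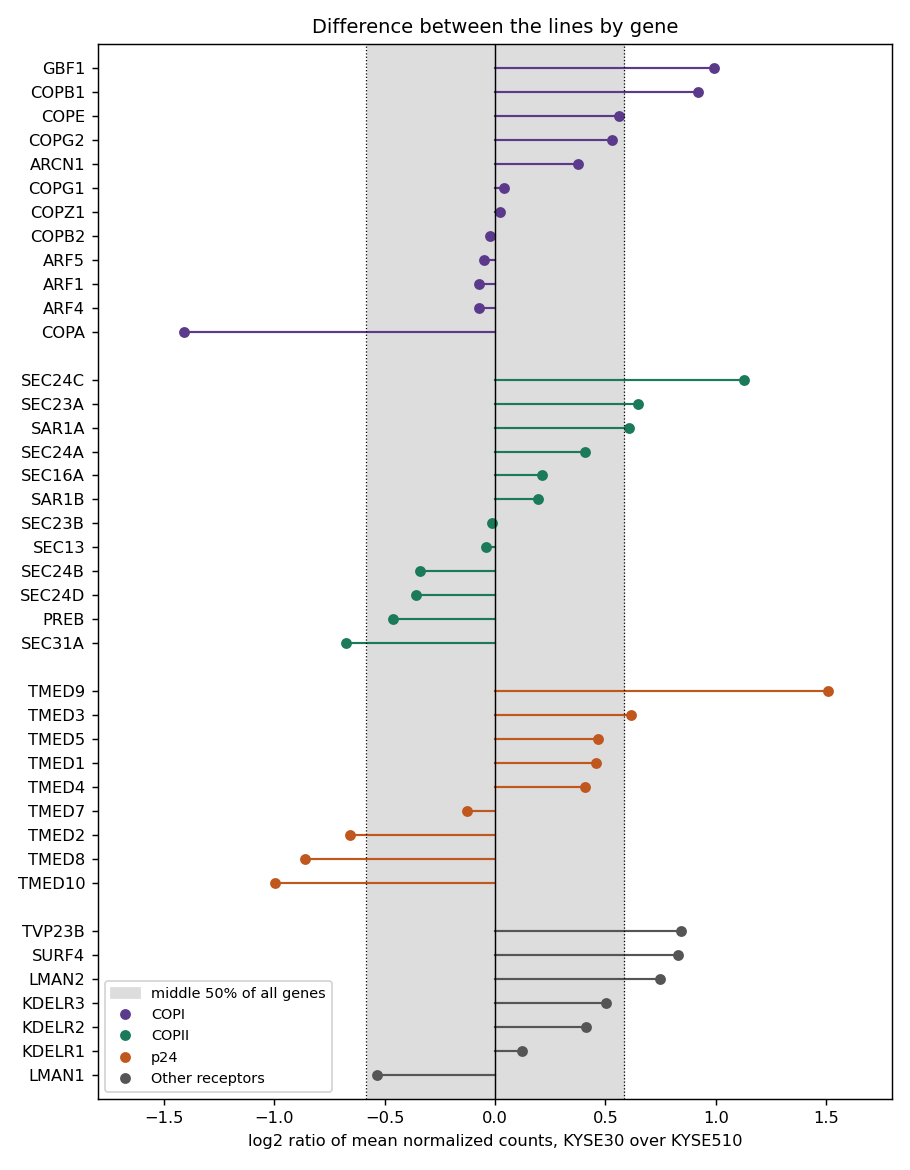
Centred log2 ratio of mean normalized counts (KYSE30 over KYSE510) for the 40 genes with values in both lines, grouped by family, with positive values higher in KYSE30. The grey band holds the middle 50% of all genes and the dotted lines mark 1.5-fold; each family has genes on both sides of 0, with TMED9 at 1.51 and COPA at -1.41 as the ends.

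Genes that act beside these coats were compared in the same way, from lists chosen with earlier results of these data known. Of 23 tethers and SNAREs of the early secretory pathway, which dock and fuse the vesicles, 1 was higher in KYSE30 and 3 in KYSE510, with a median log2 ratio of -0.03. Of 21 ER exit site proteins and ARF regulators, 3 and 5 were, with a median of -0.03. Of 12 genes of clathrin and its AP-1 adaptor, which form vesicles at the trans-Golgi, 3 and 2 were, with a median of 0.18. These counts are read against the same backgrounds.

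Genes of these lists at least 2-fold apart are named next, without a share of all genes at that limit. USE1, a SNARE of the retrograde route, had means of 99.4 in KYSE30 and 236 in KYSE510 (log2 ratio -1.29). TFG, which organises ER exit sites, had 2689 and 5778 (-1.14), and ARFGAP3, which triggers GTP hydrolysis by ARF on COPI vesicles, 528 and 1117 (-1.12). ARFGEF1, an ARF exchange factor of the trans-Golgi, had 3560 and 1482 (1.22). In the clathrin list, the light chain CLTB had 1620 and 692 (1.19), and the AP-1 sigma paralogs went opposite ways, with AP1S1 at 2408 and 920 (1.35) and AP1S3 at 244 and 520 (-1.13). By level with the union of exons, RAB1B, a GTPase of ER to Golgi transport, was the highest tether-list gene with 464.6 in KYSE30 and 325.1 in KYSE510. ARF3 led its list in KYSE30 with 231.5, against 209.8 in KYSE510, where TFG was higher with 223.7. AP1S1 led the clathrin list in KYSE30 with 258.9, against 101.3 in KYSE510, where AP1M2 was higher with 132.1.

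The position of the genes was compared with their difference between the lines. For each gene, the median log2 ratio was taken over the other genes with a mean of at least 10 in both lines whose start lies within 1 Mb. COPA (chromosome 1, 160288686 to 160343400) had a ratio of -1.41 and its 27 neighbours a median of -1.02. TMED8 and TMED10, both on chromosome 14 with starts 2204 kb apart, had -0.86 and -0.998 with neighbour medians of -0.86 (16 genes) and -0.52 (21 genes). SEC31A had -0.67 and its 16 neighbours -0.50. TMED2, at chromosome 12, was the exception among the genes higher in KYSE510, with a ratio of -0.66 and a median of -0.05 over 31 neighbours.

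On the other side, TMED9 and LMAN2 lie 260.6 kb apart on chromosome 5 and share most of their neighbours, and both had a neighbour median of 0.63, over 28 and 34 genes. SEC24C had a neighbour median of 0.48 (31 genes), SAR1A 0.53 (11), SURF4 0.45 (24), GBF1 0.38 (27) and TVP23B 1.12 (34). COPB1 (0.15, 3 genes), SEC23A (0.15, 6 genes) and TMED3 (0.12, 16 genes) stood well above their neighbours. SEC16A was the reverse, with a ratio of 0.21 inside a neighbourhood at 0.85 (59 genes). Some genes less than 1.5-fold apart had the sign opposite to their neighbours. COPG2 was at 0.53 with its neighbours at -0.37 (13 genes), and KDELR3 at 0.50 with neighbours at -0.14 (48 genes). The others were KDELR1 (0.12 against -0.22), COPG1 (0.04 against -0.31), COPZ1 (0.02 against -0.05), SEC23B (-0.01 against 0.39) and ARF1 (-0.07 against 0.13).

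Each of the 15 genes at least 1.5-fold apart had the sign of its neighbours' median. For TMED2 that median was close to 0 (-0.05), and its sign depends on the centring. Taken as shares of the totals, the median ratio of all genes would be 0.06. The same was true of 73.3% of the 6740 genes that far apart with a mean of at least 10, and of 79.5% of the 2213 with a mean of at least 500. Over the 40 genes, 33 (82.5%) shared the sign, against 66.6% of the 13618 genes with a mean of at least 10 and a neighbour. Spearman's rho between gene and neighbourhood was 0.78 over the 40 genes, against 0.42 over the 13618. Neither background was taken at a mean of at least 500, so these values cannot be called high for genes this abundant. These are descriptions with no p. Genes near each other share neighbours (TMED9 with LMAN2, and SAR1B with SEC24A, whose starts are 47.6 kb apart), so the points are not independent. The part of shared position in the ratios was not tested.

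**Figure D4:**
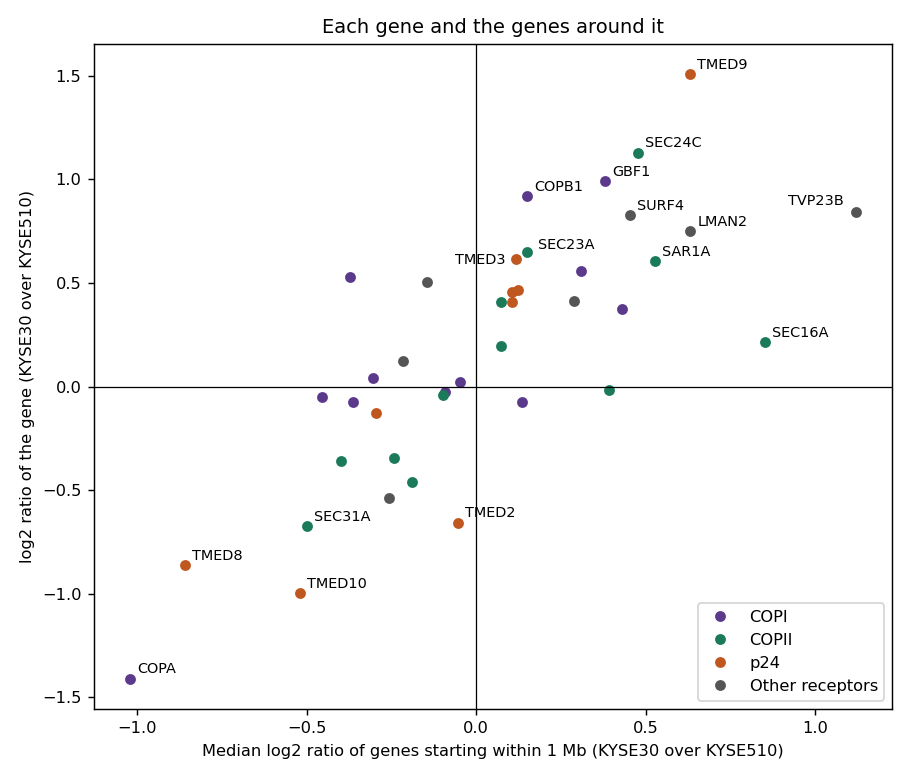
Centred log2 ratio of each of the 40 genes (vertical axis, KYSE30 over KYSE510) against the median log2 ratio of the genes starting within 1 Mb (horizontal axis), coloured by family, with labels on genes at least 1.5-fold apart and on SEC16A. COPA, TMED8 and TMED10 lie low on both axes and TMED9, SEC24C and TVP23B high on both, whereas TMED2 and COPB1 differ from their neighbourhoods.

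Some of the values could share reads with other genes. The span of 18 of the genes overlaps another gene with a mean of at least 10 in a line, and whether counting used the strand was not given in the sources used here. COPG2 overlaps MEST, on the opposite strand, which had a mean of 935 in KYSE30 and 1.32 in KYSE510, beside 752 and 507 for COPG2 itself. COPA overlaps NCSTN on the opposite strand (1307 and 2423), and KDELR3, with means of 109 and 75.04, overlaps DDX17 (9218 and 10050). SEC31A overlaps THAP9-AS1 on its own strand (331 and 1082), TMED7 overlaps the readthrough gene TMED7-TICAM2 (176 and 224), and TMED1, with means of 470 and 333, lies across from DNM2 (2908 and 2657). TVP23B has the near copy TVP23C (281 and 91.1), and TMED10 the pseudogene TMED10P2 (13.5 and 0.780). The part of these genes in the values was not tested.

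The samples were checked as epithelial. All 5 epithelial and 10 squamous markers had a mean of at least 10 in both lines. Among the keratins, KRT5 was at 12.9 in KYSE30 and 30950 in KYSE510, KRT17 at 37.2 and 29750, and KRT19 at 47030 and 162. The other keratins listed were closer between the lines: KRT14 (151 and 126), KRT6A (458 and 806), KRT8 (62840 and 35010) and KRT18 (35560 and 20130). Of the squamous markers that are not keratins, TP63 (2349 and 7681), SFN (3474 and 10200), DSP (5096 and 14750) and DSG3 (940 and 2899) were lower in KYSE30. ITGB4 was higher there (34470 and 9827), and PERP was similar (10450 and 10770). Of the markers of other cells, 2 of 6 fibroblast genes (summed mean 305 and 806), 2 of 4 endothelial genes (172 and 270) and 1 of 5 immune genes (113 and 382) reached 10 in each line. These were COL1A1 (268 and 739), COL3A1 (35.1 and 51.5), CDH5 (157 and 239), VWF (14.3 and 27.8) and CD68 (99.1 and 379). The others, such as COL1A2, DCN, PECAM1, PTPRC and CD3E, were below 10 or had no row. LHX2 had a mean of 74.4 in KYSE30 and 8.85 in KYSE510 over both groups, which is no check of the knockdown.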

How the data were processed

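RNA was extracted with Trizol and libraries were made with a TruSeq kit, per the labels. Per the labels, the authors used hg38 and DESeq (no version stated). Aligner, counter and annotation are not stated in the sources used here. The deposited tables, 1 per cell line, hold 0 columns of values per library. As signal, the authors deposited for each gene a mean of counts divided by size factors over a line's 4 libraries. It was used as the authors' value, with no SD. The other columns (log2 fold change, its standard error, statistic, p-values and direction of shLHX2 against shNC) are the authors' own comparison and were not used. Totals of the means were 18938000 in KYSE30 and 19198700 in KYSE510. The number of reads per library is unknown.

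Genes were taken at a mean of at least 10 (15189 in KYSE30, 14770 in KYSE510). All 29100 identifiers matched GENCODE 29, which gave exon lengths and positions. Ratios between lines were centred on the median gene and counted at 1.5-fold, with 2-fold, other scalings, filters, lengths and a pseudocount of 1 as alternatives. Lengths of coding transcripts and windows of 0.5 and 2 Mb were added after the data were seen. Scripts (Python 3.11.15, pandas 2.3.3, numpy 2.4.6, scipy 1.17.1) were tested on simulated data. All listed genes were accounted for; paralogs were set side by side, and genes at the ends of each family or 1.5-fold apart (other lists: highest, or 2-fold apart) were named. The members, lists and motifs were chosen with earlier results of these data known. Protein sequences were not used here.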

Additional observations from a re-analysis of the deposited data

How the results depend on the processing

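The number of genes among the highest 10% was 24 in KYSE30 and 22 in KYSE510 with all genes above 0 ranked, against 17 and 14 as reported. With a mean of at least 100 it was 14 and 11. At 1.5-fold, 10 genes were higher in KYSE30 as reported. The count was 11 with means as deposited, with the 75th percentile and with a mean of at least 100. It was 12 as shares of the totals and 8 with all genes above 0. The count higher in KYSE510 was 5 in each of these settings. The share of all genes was not taken under them. With a 2-fold limit, 2 genes were higher in KYSE30 and 1 in KYSE510. The share of all genes at that limit was not taken, so these counts cannot be called low or high. The median log2 ratio of the 40 genes was 0.20 as reported, 0.24 with means as deposited and 0.26 as shares of the totals. It was 0.25 with the 75th percentile and 0.17 with all genes above 0. With a mean of at least 100, which leaves out KDELR3, it was 0.23. Of 239 settings of single genes, 7 crossed the 1.5-fold limit (SAR1A, TMED3, COPE and COPG2), and no gene past that limit changed sign. In 13 settings the sign changed in 5 genes close to 0 (SEC23B, COPB2, COPZ1, SEC13 and ARF5), whose size as reported was at most 0.0485. Spearman's rho with neighbours was 0.74 within 0.5 Mb and 0.72 within 2 Mb. No paired analysis was possible because the tables hold no values per library, and for the same reason no replicate could be left out. The orders of SAR1A and SAR1B, of ARF4 and ARF5, of the COPI subunits, of the COPII genes and of the p24 gamma genes depend on the length chosen. Depth per library is unknown, so no precision can be given.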
